A study of Homo sapiens with 8 samples.

Results

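The 36 genes described here belong to the amino acid branch of the ATF4 response: the transcription factor ATF4 and its bZIP partners, its feedback and stress regulators, the enzymes of serine, one-carbon, asparagine and cysteine metabolism, and the amino acid transporters. They were matched by gene symbol, and all 36 were found among the 18564 genes of the deposited table. The list was chosen from earlier results of the same 8 libraries, in which genes of this response had moved together, so that the differences between lines and between libraries given below describe what chose the members and are no independent evidence about them. Of the 36 genes, 34 had enough counts to be tested across the 4 conditions and 33 in the comparisons of 4 against 4 libraries.
RNA was sequenced from LP-1, an established human multiple myeloma cell line, in wild-type (WT) cells and in a bortezomib-resistant (BR) derivative. Bortezomib inhibits the proteasome, and per the labels the BR cells had been kept in it for 2 months. Either line received the DMSO vehicle or, for 24 h, 25 nM of SI-2, which inhibits the coactivator SRC-3. Each of the 4 conditions has 2 libraries, numbered 1 and 2 in the labels, and they are named here by line, treatment and number. The BR cells are a single derived line, and whether its bortezomib was still present at harvest is not stated. The study describes the expression profiles of BR cells with vehicle and SI-2 as coming from independent experiments, and for the WT libraries this is not stated in the sources used here. The p-values below measure the spread between these libraries. The labels call the cells B lymphoblasts. All 8 plasma cell markers checked (SDC1, CD38, TNFRSF17, IRF4, PRDM1, XBP1, MZB1 and SLAMF7) had counts in every library, IRF4 at a mean of 945 CPM (estimated counts scaled to library size with TMM factors) but SLAMF7 near the floor at 0.847 to 1.55 CPM, whereas MS4A1 and PAX5, which mark mature B cells, had at most 2 and 1 counts in any library. NSD2 and FGFR3, the genes brought under the immunoglobulin enhancers by the translocation that LP-1 carries, summed to between 1262 and 2107 CPM. Library totals ran from 17997771 to 18570027 estimated counts, so depth differed little.

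ATF4 is made when the initiation factor eIF2 is phosphorylated, which slows general translation but lets ribosomes reach the ATF4 reading frame. The kinase GCN2 (EIF2AK4) does this when uncharged tRNA accumulates and PERK (EIF2AK3) does it when unfolded protein fills the endoplasmic reticulum, a state to which plasma cells are prone because they secrete so much immunoglobulin. ATF4, paired with a C/EBP protein, then binds composite sites with the core TGATGNAA and switches on genes that make or import amino acids. Because this control is translational, the level of ATF4 mRNA is not a measure of ATF4 protein, which these data do not hold.
The core TGATGNAA, or its reverse complement TTNCATCA, was searched in the promoter windows of RefSeq (build GRCh38.p14), which run from 250 bases before to 50 bases after each gene's start. Of the 36 members, 29 had a window and 5 of these (17.2%) held the core, against 1270 of all 35116 promoters (3.62%) and 206 of the 11196 promoters of the genes tested (1.84%). The members were listed as genes of the ATF4 response, so nothing is read from the higher share among them. The matches are shown because they are the members whose window holds the core of the ATF4 site, and the capitals mark the core. Counted from the start as base 1, the core began at -191 in ATF3, -68 in ASNS and -209 in CHAC1, and inside the transcribed sequence in SLC3A2, at 38, and SLC7A1, at 8. Each is written 5′ to 3′ on the strand of its gene.
ATF3, chr1:212565186-212565253, plus strand: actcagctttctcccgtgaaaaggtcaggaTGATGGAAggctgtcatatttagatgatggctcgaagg
ASNS, chr7:97872439-97872506, minus strand: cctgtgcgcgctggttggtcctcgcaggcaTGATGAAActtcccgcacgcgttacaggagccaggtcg
CHAC1, chr15:40953232-40953299, plus strand: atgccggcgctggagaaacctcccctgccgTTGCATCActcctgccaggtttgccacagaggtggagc
SLC3A2, chr11:62881725-62881748, plus strand: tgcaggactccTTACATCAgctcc
SLC7A1, chr13:29595663-29595692, minus strand: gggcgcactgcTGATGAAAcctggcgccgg
A match is a description of these letters, not of binding, which was not measured here.

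In these libraries the members moved largely as a block. It was highest in WT vehicle 2 and WT SI-2 2, and WT vehicle 1 and BR vehicle 1 came next, closer to the mean. BR vehicle 1, WT SI-2 2 and both WT vehicle libraries were the 4 highest for 21 of the 34 tested members, a set that was highest for 8.77% of all 13896 genes tested. The 21 members include ATF4 itself, ASNS, TRIB3, CHAC1, SESN2, DDIT4, all of the 4 abundant serine and one-carbon enzymes and the transporters SLC7A5, SLC7A1, SLC1A5, SLC1A4 and SLC6A9. WT vehicle 2 was the highest library for 23 of 34 members (13.9% of all genes) and BR SI-2 2 the lowest for 25 (16.3% of all genes). Averaged over the 34 members after each gene was centred on its own mean, the log2 CPM was 0.61 in WT vehicle 2 and 0.49 in WT SI-2 2, 0.15 in WT vehicle 1 and 0.08 in BR vehicle 1. It was -0.16 in WT SI-2 1 and -0.15 in BR SI-2 1, and the lowest averages were -0.48 in BR vehicle 2 and -0.56 in BR SI-2 2. The same average over all genes tested stayed between -0.02 and 0.02 in every library. The 36 genes together took 1.501% of the counts in WT vehicle 2 and 0.731% in BR SI-2 2.

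**Figure D1:**
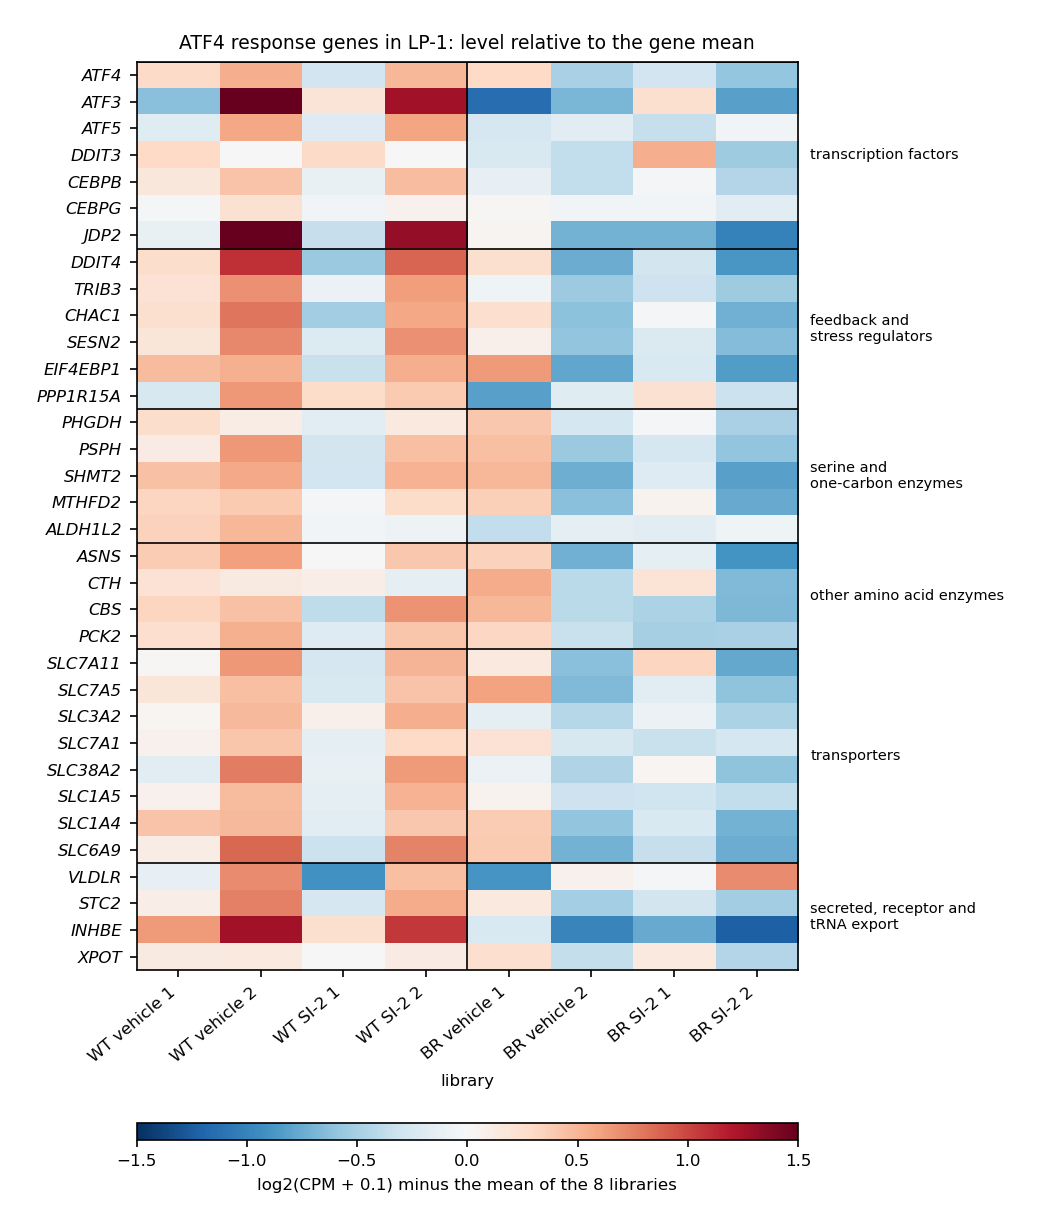
Level of the 34 tested members in the 8 libraries, as log2(CPM + 0.1) minus the gene's mean, with rows grouped by role and WT libraries left of the vertical line. Colours stop at 1.5 in either direction. WT vehicle 2 and WT SI-2 2 are red and BR vehicle 2 and BR SI-2 2 blue for most rows, while the replicate 1 libraries of both lines are pale or mixed.

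Libraries of the same condition differed in this average, and those of WT SI-2 and of BR vehicle lay on different sides of 0. In WT cells, library 2 was above library 1 for 31 of 34 members with vehicle (median difference 0.38 in log2 CPM) and for 31 with SI-2 (median 0.73). In BR cells it was the reverse, with library 2 below library 1 for 29 of 34 members with vehicle (median -0.67) and for 29 with SI-2 (median -0.43). Over all 13896 genes these 4 medians lay between -0.02 and 0.01. As a consequence the gap between the lines depended on which libraries were compared. Between the libraries numbered 1, the 34 members differed between BR and WT cells by a median of 0.02 with vehicle (19 higher and 15 lower in BR) and 0.00 with SI-2 (17 and 17). Between the libraries numbered 2, the median was -1.06 with vehicle, where 34 of 34 members were lower in BR cells, and -1.06 with SI-2, where 32 were. ATF4 did the same, with BR minus WT differences of 0.01 and 0.01 for the libraries numbered 1 and -1.03 and -1.07 for those numbered 2. INHBE was the member with the lowest value in both comparisons of libraries numbered 1, at -0.87 and -0.99. These are differences between single libraries, with no test. What the number marks is not stated, so libraries of unlike number could equally be set against each other. In the average of the members, BR vehicle 1 (0.08) lay below WT vehicle 2 (0.61), and BR vehicle 2 (-0.48) below WT vehicle 1 (0.15).

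**Figure D2:**
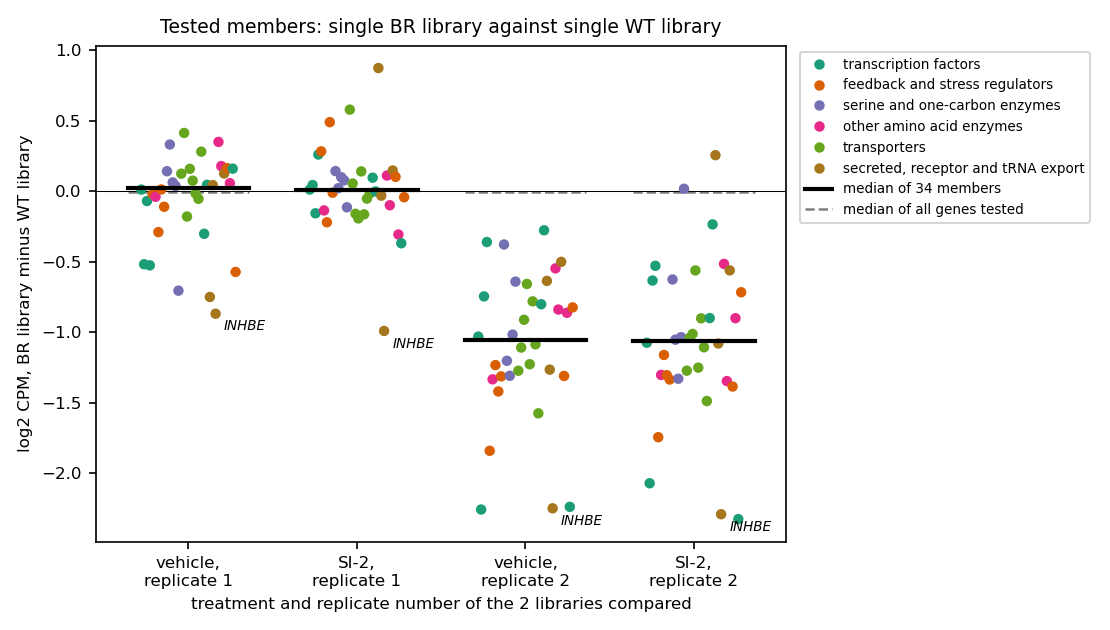
Difference in log2 CPM between 1 BR and 1 WT library of the same treatment and number, with 1 point for each of the 34 tested members coloured by role, a black bar for their median and a dashed grey bar for the median of all genes tested. The members scatter around 0 between the libraries numbered 1 and around -1.06 between those numbered 2, and INHBE is low in all 4 comparisons.

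The trend of log2 CPM with GC content or gene length across all genes was removed in turn, and the average of the members over the 8 libraries had a correlation of 0.998 and 0.9997 with the one measured (all 34 members had a GC and length value). In BR SI-2 2 and BR vehicle 2, the libraries with the lowest average, the summed plasma cell markers were also lowest, at 2187 and 2389 CPM against 2959 to 3791 in the other 6. Of the 8 markers 5 (CD38, IRF4, PRDM1, XBP1 and MZB1) were lowest in these libraries, and TNFRSF17, SDC1 and SLAMF7 were not. NSD2 and FGFR3 summed to 2041 and 2054 CPM there, within the 1799 to 2107 of the other BR libraries and above the 1262 to 1534 of the WT libraries. In bulk RNA, fewer cells of a type and less RNA per cell cannot be told apart, and the part of cell state or culture in these differences was not tested.

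Among the transcription factors, 7 of 8 members were tested. All 7 had a lower mean in BR than in WT cells over both treatments, as did 49.1% of all genes. Their log2 fold changes ran from -1.38 (JDP2) to -0.12 (CEBPG). None of the 7 passed the threshold for the adjusted p in edgeR (adjusted p from 0.196 for CEBPB to 0.633 for DDIT3). ATF4 (NCBI gene 468) was at 1124 and 1345 CPM in WT vehicle, 751 and 1299 in WT SI-2, then 1132 and 658 in BR vehicle and 757 and 617 in BR SI-2. Of the 4 highest libraries 3 were WT and 1 was BR vehicle 1, and the lines overlapped. ATF3 (NCBI gene 467), a stress-induced bZIP repressor, was at 14.04 and 65.0 CPM in WT vehicle, 24.9 and 52.2 in WT SI-2, then 9.77 and 13.5 in BR vehicle and 25.6 and 12.4 in BR SI-2. Here WT vehicle 2 and WT SI-2 2 stood apart, and the other WT libraries lay within the BR range or close to it. JDP2 (NCBI gene 122953), another bZIP repressor, was high in the same pair of libraries, with 9.09 and 28.7 CPM in the WT cells with vehicle and 7.75 and 24.6 with SI-2, against 10.2 and 5.99 in the BR cells with vehicle and 5.97 and 4.83 with SI-2. ATF5 (NCBI gene 22809), a bZIP factor of mitochondrial and proteotoxic stress, was at 58.7 and 99.4 CPM in WT vehicle, 58.2 and 99.98 in WT SI-2, then 55.9 and 59.2 in BR vehicle and 52.2 and 64.4 in BR SI-2. It was thus high in the same 2 WT libraries and nearly level, between 52.2 and 64.4 CPM, in the other 6.
DDIT3 (NCBI gene 1649), which encodes the pro-apoptotic factor CHOP, did not have the shape of the other members. Its values were 98.5 and 79.7 CPM in WT vehicle, 97.7 and 79.8 in WT SI-2, then 68.4 and 62.0 in BR vehicle and 117 and 55.3 in BR SI-2. The highest library was BR SI-2 1, and the lowest BR SI-2 2, of the same condition. Over the 8 libraries its correlation with the mean of the other members was 0.32, against 0.96 for ATF4 (Pearson's r over 8 libraries that share their scaling, as a description). CEBPB and CEBPG, the C/EBP proteins with which ATF4 pairs, ran from 90.9 to 170 CPM and from 115 to 152 CPM. CEBPG was the steadiest member, with an SD of 0.12 in log2 CPM over the 8 libraries. NUPR1, a stress-induced chromatin protein, was at 0 to 3 counts in 6 libraries, at 8 in BR SI-2 1 and at 20 in BR SI-2 2, and was not tested.

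The feedback and stress regulators all had the block's shape apart from PPP1R15A. SESN2, which restrains mTORC1 when leucine is short, followed the mean of the other members more closely than any other gene of the list (r = 0.997 over the 8 libraries) and ran from 135 CPM in BR SI-2 2 to 350 CPM in WT vehicle 2. DDIT4 (NCBI gene 54541), which also restrains mTORC1, was at 467 and 829 CPM in WT vehicle, 264 and 711 in WT SI-2, then 459.9 and 232 in BR vehicle and 321 and 212 in BR SI-2. Its highest library was 3.91 times its lowest. CHAC1 (NCBI gene 79094), which degrades glutathione, was at 35.2 and 52.4 CPM in the WT cells with vehicle and 20.8 and 44.8 with SI-2, against 35.5 and 19.5 in the BR cells with vehicle and 29.3 and 18.1 with SI-2. EIF4EBP1 (NCBI gene 1978), the translation repressor 4E-BP1, had 248 and 259 CPM in WT vehicle, 142 and 260.4 in WT SI-2, then 278 and 104 in BR vehicle and 153 and 99.7 in BR SI-2. WT SI-2 1 lay among the low BR libraries, and BR vehicle 1 was the highest of all 8. TRIB3, a pseudokinase that restrains ATF4 in return, ran from 84.3 to 117 CPM in BR and from 116 to 198 in WT libraries. The lines therefore touched for TRIB3 in CPM and did not overlap in FPKM. PPP1R15A, the subunit that directs a phosphatase to eIF2, was lowest in BR vehicle 1 (39.5 CPM) and highest in WT vehicle 2 (109 CPM).

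Serine is built from a glycolytic intermediate in successive steps by PHGDH, PSAT1 and PSPH, and SHMT2, MTHFD2 and ALDH1L2 then pass its carbon through mitochondrial folate. SHMT2 (NCBI gene 6472) was at 1096 and 1199.6 CPM in WT vehicle, 660.4 and 1156 in WT SI-2, then 1143 and 484 in BR vehicle and 707 and 460.0 in BR SI-2. MTHFD2 (NCBI gene 10797) was at 1208 and 1267 CPM in the WT cells with vehicle and 954 and 1172 with SI-2, against 1239 and 626 in the BR cells with vehicle and 1006 and 572 with SI-2. For either gene BR vehicle 1 stood with the WT vehicle libraries, and BR vehicle 2 and BR SI-2 2 were lowest. PSPH (NCBI gene 5723) was at 119.8 and 173 CPM in WT vehicle, 90.7 and 151 in WT SI-2, then 151 and 75.0 in BR vehicle and 92.0 and 72.7 in BR SI-2. PHGDH moved less, from 161 CPM in BR SI-2 2 to 299.8 in BR vehicle 1.
Levels of different genes can be compared only per length, in FPKM. On that scale MTHFD2 (mean 463 FPKM over the 8 libraries) and SHMT2 (417) lay above PHGDH (113) and PSPH (47.4), while ALDH1L2 (0.199) and PSAT1 (0.188) were near 0. PSAT1 (NCBI gene 29968), the enzyme between PHGDH and PSPH, had counts of 4 and 1 in WT vehicle, 5 and 6 in WT SI-2, then 0 and 6 in BR vehicle and 0 and 35 in BR SI-2. PSAT1 has pseudogene copies to which shared reads can be assigned, so its level is uncertain.
The library with 35 PSAT1 counts, BR SI-2 2, also held RNA that was near 0 in the others. The fibroblast markers COL1A1, COL1A2 and DCN reached 53.6, 8.05 and 7.43 CPM there and summed to 69.1 CPM, while they summed to between 0.167 and 0.512 CPM in the other 7 libraries. The epithelial markers EPCAM and KRT19 summed to 3.17 CPM there and to at most 0.057 elsewhere. The T cell markers found (CD3E and CD8A, of 3) summed to at most 0.265 CPM in any library and the myeloid markers CD14, LYZ and CSF1R to at most 4.94, mostly LYZ. The part of this RNA in the PSAT1 and NUPR1 counts was not tested. The medians of the comparisons are also given without this library.

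**Figure D3:**
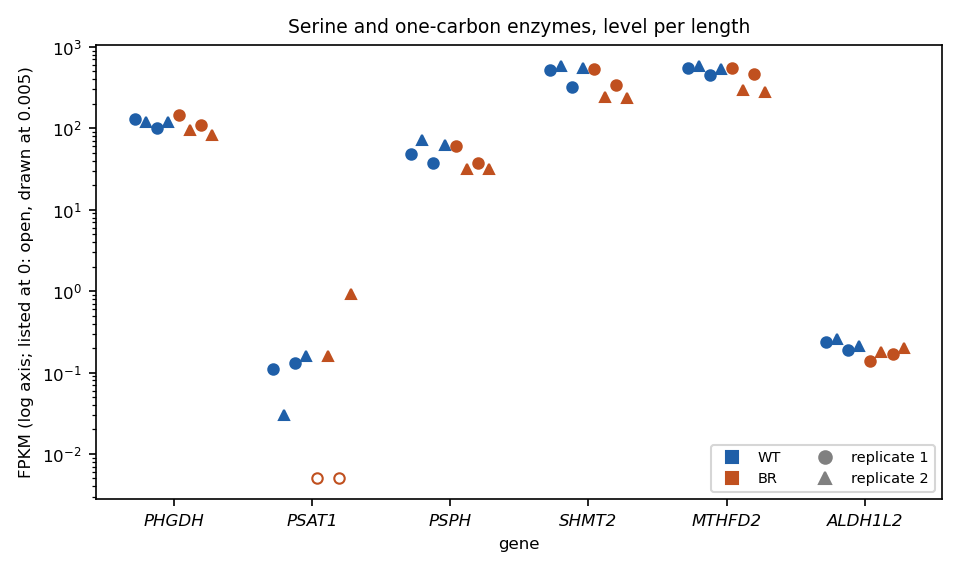
FPKM of the 6 serine and one-carbon enzymes in each library on a log axis, with WT libraries in blue, BR in orange, circles for replicate 1 and triangles for replicate 2; within each gene the order is WT vehicle, WT SI-2, BR vehicle and BR SI-2, and open symbols are libraries listed at 0. PSAT1 and ALDH1L2 lie below 1 FPKM in all libraries, and MTHFD2 and SHMT2 above 200.

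Of the other amino acid enzymes, ASNS (NCBI gene 440), which makes asparagine, was at 810.3 and 950.4 CPM in WT vehicle, 625 and 827 in WT SI-2, then 788 and 377 in BR vehicle and 568 and 335 in BR SI-2. BR vehicle 2 and BR SI-2 2 were the lowest libraries, and BR vehicle 1 lay above WT SI-2 1. PCK2 (NCBI gene 5106), the mitochondrial PEP carboxykinase, was at 242 and 292 CPM in the WT cells with vehicle and 177 and 269 with SI-2, against 251 and 160.5 in the BR cells with vehicle and 143 and 144 with SI-2. BR vehicle 1 was again among the WT libraries, and the other 3 BR libraries lay below all of them. CBS (NCBI gene 875), which starts the path from homocysteine to cysteine, was at 38.7 and 41.9 CPM in WT vehicle, 23.8 and 49.4 in WT SI-2, then 43.8 and 23.4 in BR vehicle and 22.2 and 19.4 in BR SI-2. CBS shares its sequence with a near-identical copy, CBSL, and its log2 fold change between BR and WT cells was -0.50 alone and -0.44 with both copies summed, so its level is uncertain. Without 1 library it ran from -0.83, without BR vehicle 1, to -0.36. CTH, the next enzyme of that path, was scarce, between 2.65 and 6.33 CPM, and had its highest value in BR vehicle 1.

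The 8 transporters were all tested. SLC7A5 (NCBI gene 8140), the leucine exchanger LAT1, was at 863 and 1035 CPM in WT vehicle, 648 and 1023 in WT SI-2, then 1149 and 480.0 in BR vehicle and 672 and 498 in BR SI-2. BR vehicle 1 was the highest of all 8 libraries and BR vehicle 2 the lowest. SLC3A2 (NCBI gene 6520), the heavy chain that carries LAT1 and xCT to the membrane, was at 675 and 928 CPM in the WT cells with vehicle and 696 and 963 with SI-2, against 596 and 493 in the BR cells with vehicle and 623 and 478 with SI-2. It was the only transporter whose BR libraries, at 478 to 623 CPM, all lay below its WT libraries, at 675 to 963. SLC7A11 (NCBI gene 23657), the cystine importer xCT, was at 34.7 and 53.7 CPM in WT vehicle, 28.6 and 48.6 in WT SI-2, then 37.8 and 22.2 in BR vehicle and 42.7 and 20.1 in BR SI-2. SLC6A9 (NCBI gene 6536), a glycine carrier, was at 153 and 258 CPM in the WT cells with vehicle and 113 and 238 with SI-2, against 186 and 86.7 in the BR cells with vehicle and 112 and 84.9 with SI-2. Its highest library was 3.04 times its lowest, the widest range among the transporters. SLC1A4 (NCBI gene 6509), a neutral amino acid exchanger, was at 613 and 637 CPM in WT vehicle, 402 and 599 in WT SI-2, then 589.8 and 300.2 in BR vehicle and 388 and 278 in BR SI-2. WT SI-2 1 lay close to BR SI-2 1, and BR vehicle 1 close to the other WT libraries. The glutamine carrier SLC1A5 ran from 668 to 1248 CPM, SLC38A2, which takes up small neutral amino acids, from 524 to 1361, and the arginine carrier SLC7A1 from 245 to 414.

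**Figure D4:**
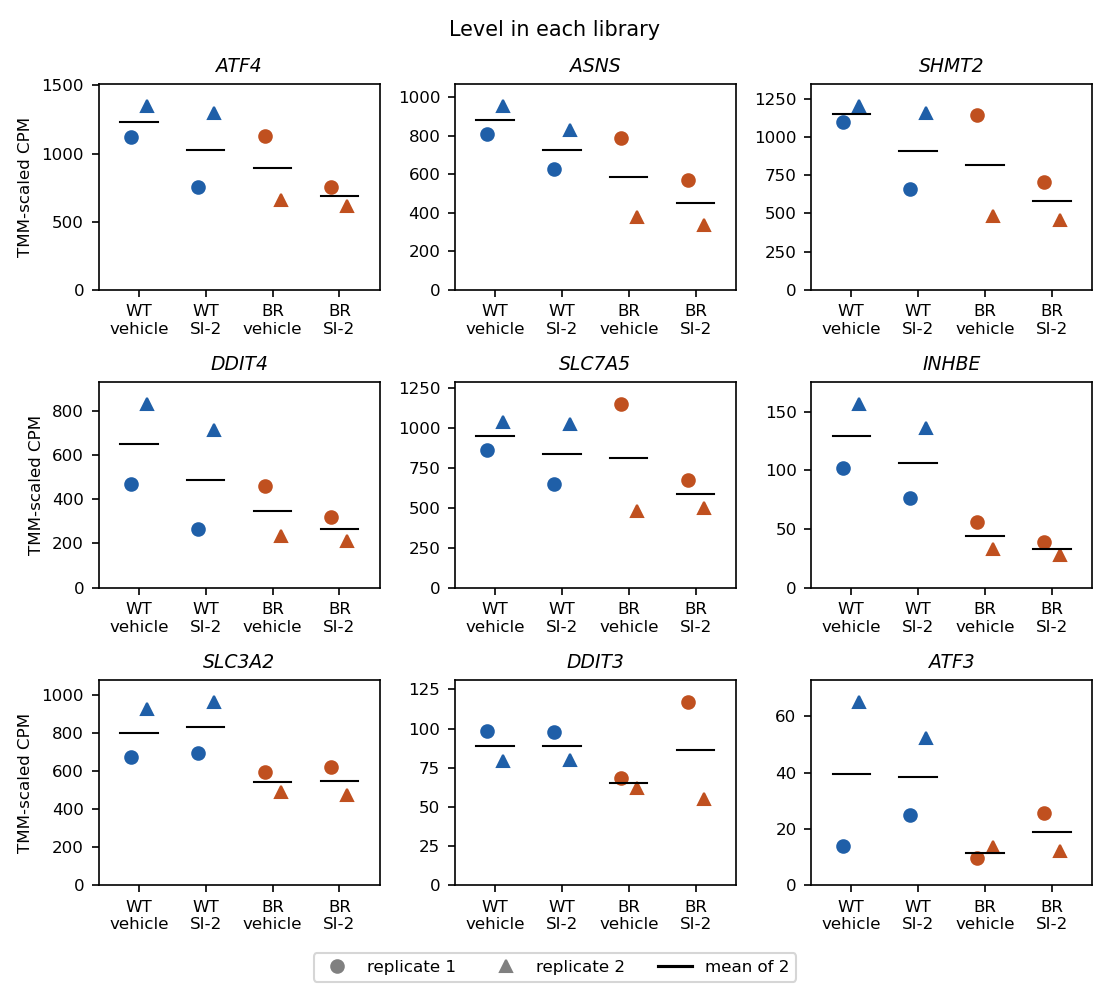
TMM-scaled CPM of 9 members in each library, with circles for replicate 1, triangles for replicate 2 and a bar for the mean of the 2 libraries; axes start at 0 and differ between panels. The libraries of a condition are often further apart than the means of the conditions, and the BR values lie below the WT values without overlap only for INHBE and SLC3A2.

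Of the remaining members, INHBE (NCBI gene 83729), the activin βE subunit, had the largest log2 fold change between the lines over both treatments. INHBE was at 102 and 156 CPM in WT vehicle, 76.7 and 136 in WT SI-2, then 55.6 and 32.8 in BR vehicle and 38.5 and 27.7 in BR SI-2. All 4 BR libraries, at 27.7 to 55.6 CPM, lay below all 4 WT libraries, at 76.7 to 156. Within each line its libraries kept the order of the members' average, and over all 8 libraries its correlation with the mean of the other members was 0.93. STC2 (NCBI gene 8614), the secreted stanniocalcin 2, was at 185 and 290.1 CPM in the WT cells with vehicle and 145 and 254 with SI-2, against 191 and 121 in the BR cells with vehicle and 142 and 120.1 with SI-2, and had the block's shape (r = 0.99). VLDLR (NCBI gene 7436), a lipoprotein receptor, was near its detection limit, with counts of 8 and 16 in WT vehicle, 4 and 13 in WT SI-2, then 4 and 10 in BR vehicle and 9 and 17 in BR SI-2. No order of the libraries can be read from such counts. XPOT, which exports tRNA from the nucleus, varied little, from 619 to 1006 CPM.

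The comparison of BR with WT cells over both treatments asks which of these genes follow the line. It counted the 4 libraries of a line as independent. Differences between numbers 2 and 1 correlated across genes at 0.44 between vehicle and SI-2 in WT cells and at 0.37 in BR cells. The p-values and SDs of this comparison may therefore overstate the replication. All 33 members tested had a lower mean in BR cells, where 49.1% of all 13520 genes did, the median log2 fold change being -0.51 for the members and 0.00 over all genes. The range ran from -1.61 for INHBE to -0.08 for CTH. INHBE had a mean of 118 ± 35.4 CPM in WT and 38.7 ± 12.1 CPM in BR cells (SD, n = 4), a log2 fold change of -1.61 (SE 0.25). It was the only member past an adjusted p of 0.05 (adjusted p = 0.0237 by the quasi-likelihood test of edgeR, adjusted over all genes by Benjamini-Hochberg), which 0.362% of all genes passed (49 genes, 15 higher and 34 lower in BR). Since this contrast was among the results that chose the members, nothing is read from these counts. ATF4 was at 1129.6 ± 269.8 CPM in WT and 791 ± 235 CPM in BR cells (SD, n = 4), a log2 fold change of -0.51 (SE 0.22) that did not pass (adjusted p = 0.321, edgeR). The largest changes after INHBE, -1.38 (SE 0.42) for JDP2, -1.35 (SE 0.44) for ATF3 and -0.89 (SE 0.34) for DDIT4, did not pass either (edgeR, adjusted p = 0.201, 0.224 and 0.273). DESeq2 called 3 members, INHBE, SLC3A2 and TRIB3, where it called 3.01% of all genes (399). At an unadjusted p under 0.05 (edgeR) there were 18 members, against 14.4% of all genes. The medians by role were -0.65 for feedback and stress regulators, -0.61 for the 3 tested genes of secreted proteins and tRNA export, -0.51 for transporters, -0.49 for transcription factors, -0.49 for the other amino acid enzymes and -0.42 for serine and one-carbon enzymes. With the 4 BR and the 4 WT libraries ranked gene by gene, all BR values lay below all WT values for 2 of 34 members in CPM, SLC3A2 and INHBE, against 4.35% of all genes, and above them for 0, against 3.71%. In FPKM it was 3 of 34, with TRIB3, against 3.79%, and again 0 above, against 4.24%.
INHBE lost the call when WT vehicle 2, WT SI-2 2, BR vehicle 2, BR SI-2 1 or BR SI-2 2 was left out (edgeR, adjusted p from 0.0628 to 0.0946), with log2 fold changes from -1.60 to -1.44. The median of the members without BR SI-2 2, the library with fibroblast markers, was -0.42.

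**Figure D5:**
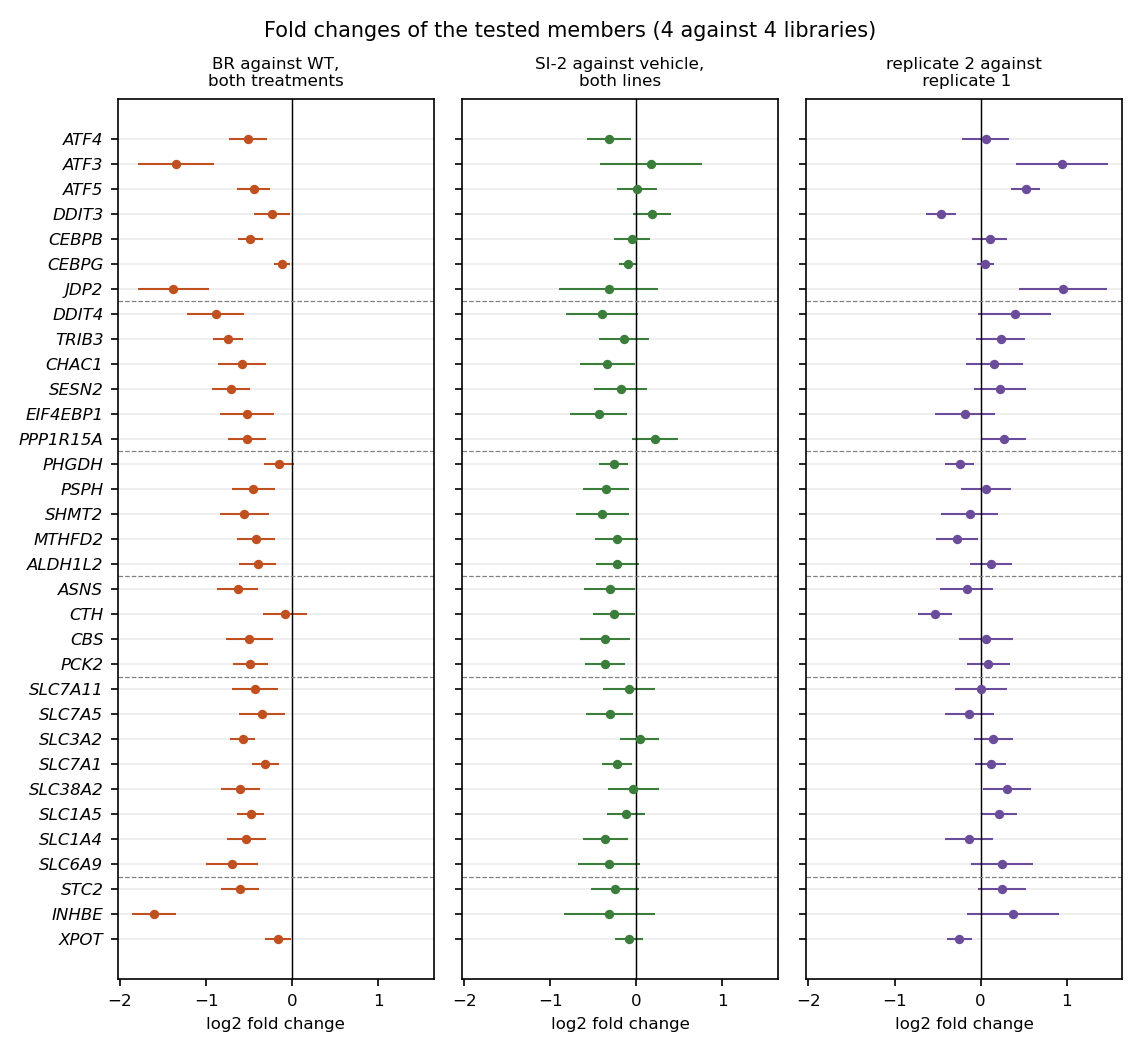
Log2 fold change of the 33 members tested in comparisons of 4 against 4 libraries, with bars of 1 standard error from edgeR: BR against WT, SI-2 against vehicle, and replicate 2 against replicate 1. In the left panel all points are below 0 and INHBE, ATF3 and JDP2 are lowest; in the middle panel most bars reach or cross 0; in the right panel points lie on both sides.

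Without SI-2, all 34 members were lower in BR cells, against 49.9% of all genes, with a median of -0.52 and a range from -1.76 (ATF3) to -0.02 (CTH). None passed an adjusted p of 0.05 in edgeR, where 0% of all genes did, and 7 had an unadjusted p under 0.05, against 3.89% of all genes. With SI-2 in both lines, 33 of 34 were lower, against 48.5% of all genes, with a median of -0.57. Again none passed in edgeR, where 0.0072% of all genes did (1 gene), and 6 had an unadjusted p under 0.05, against 4.09%. DESeq2 called 0.205% of all genes with vehicle (28) and 0.223% with SI-2 (31), among them 1 member in each case, INHBE, which had edgeR log2 fold changes of -1.54 (SE 0.36) without and -1.68 (SE 0.36) with SI-2. The median without SI-2 was -0.23 when BR vehicle 2 was left out, -0.24 when WT vehicle 2 was, and -0.86 when BR vehicle 1 was. With SI-2 it was -0.17 when WT SI-2 2 was left out, -0.38 when BR SI-2 2 was, and -0.86 when WT SI-2 1 was. The 2 comparisons share no library, but all 8 libraries share 1 estimate of the spread.

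The effect of SI-2 was a further question of the study, and no member passed an adjusted p of 0.05 for it. In BR cells 24 members were lower and 10 higher with SI-2 (50.3% of all genes were lower). Their median was -0.24 on the log2 scale, where the median standard error was 0.33. The lowest was CBS at -0.69, and the highest VLDLR at 0.85 on its few counts. None passed an adjusted or an unadjusted p of 0.05 in edgeR (0% and 1.2% of all genes), and DESeq2 called none of the members and 0.0072% of all genes (1). In WT cells 31 were lower and 3 higher (49.9% of all genes were lower), with a median of -0.20. The range ran from -0.51 (ALDH1L2, on only 24 to 37 counts in each WT library) to 0.06 (PPP1R15A). Again none passed either threshold in edgeR (0% and 0.533% of all genes), and DESeq2 called none of the members and 1 gene in all. ATF4 changed by -0.38 (SE 0.30) in BR and -0.27 (SE 0.30) in WT cells, ASNS by -0.37 (SE 0.35) and -0.28 (SE 0.35), and DDIT3 by 0.40 (SE 0.31) and 0.00 (SE 0.31). The medians moved with single libraries. Without BR vehicle 1 the median in BR cells was 0.15, without BR vehicle 2 it was -0.54, without BR SI-2 1 it was -0.48 and without BR SI-2 2 it was -0.07. Without WT SI-2 1 the median in WT cells was 0.08, without WT vehicle 2 it was 0.03 and without WT SI-2 2 it was -0.55.
The difference of the SI-2 effect between the lines was tested as an interaction. It was negative for 20 members and positive for 14 (51.7% of all genes were negative), with a median of -0.03. None passed an adjusted or an unadjusted p of 0.05 in edgeR (0% and 0.533% of all genes) and DESeq2 called none of the members and 1 gene in all. The median standard error was 0.47, and the median of the members ran from -0.33 without BR vehicle 2 to 0.38 without BR vehicle 1, and was 0.14 without BR SI-2 2. With the lines combined, 28 of 33 members were lower with SI-2 (49.9% of all genes), with a median of -0.25 and a range from -0.44 (EIF4EBP1) to 0.22 (PPP1R15A). The median was -0.11 without BR SI-2 2 and -0.05 without WT vehicle 2. None passed either threshold in edgeR (0% and 2.22% of all genes) and DESeq2 called none of the members and 0% of all genes. The medians by role were -0.34 for the other amino acid enzymes (4 of 4 lower), -0.26 for serine and one-carbon enzymes (5 of 5), -0.26 for feedback and stress regulators (5 of 6), -0.25 for secreted proteins and tRNA export (3 of 3), -0.17 for transporters (7 of 8) and -0.05 for transcription factors (4 of 7), and differences between roles were not tested.
Compared within libraries of the same line and number, SI-2 was mostly below vehicle. The members' median difference in log2 CPM was -0.36 between the WT libraries numbered 1 (30 of 34 lower, against 51.0% of all genes) and -0.12 between those numbered 2 (26 lower, against 46.9%). In BR cells it was -0.35 (25 lower, against 50.5%) and -0.10 (29 lower, against 56.2%). For 18 of 34 members the SI-2 library was below its vehicle library in all 4 of these pairs, where 11.9% of all genes were, and for 0 it was above in all 4, where 9.73% of all genes were. The 18 include ATF4, ASNS, DDIT4, CHAC1, SESN2, SHMT2, MTHFD2, PSPH, PCK2, SLC1A4, STC2 and INHBE. With a block for each line and number, added after the data were seen, the largest difference in units of its error was that of ASNS at -0.30 (SE 0.06), and ATF4 was at -0.33 (SE 0.10). No member passed an adjusted p of 0.05 in edgeR (smallest adjusted p = 0.339), nor did any gene (0% of all genes), and 19 of 33 members had an unadjusted p under 0.05, each of them lower with SI-2, against 13.9% of all genes. Because the members were chosen with results of these libraries known, nothing is read from these counts.

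The replicate number was compared as the only label that separates libraries of a condition. With either treatment, library 2 was above library 1 for 31 of 34 members in WT cells and below it for 29 in BR cells. This comparison averages over the lines, so such opposite differences partly cancel in it and few calls cannot show that libraries were alike. The libraries numbered 2 had a higher mean for 23 of 33 members and a lower one for 10 (51% of all genes were lower), with a median of 0.10 and a range from -0.53 (CTH) to 0.96 (JDP2). None passed an adjusted p of 0.05 in edgeR, where 0.925% of all genes did (125 genes), DESeq2 called none of the members and 6.11% of all genes (746). At an unadjusted p under 0.05 (edgeR) there were 3 members, against 16.9% of all genes. These 3 were ATF5, at 0.52 (SE 0.17), and DDIT3 and CTH, at -0.46 (SE 0.17) and -0.53 (SE 0.20). The median without BR SI-2 2 was 0.24, and it was -0.05 without WT vehicle 2 and -0.02 without WT SI-2 2.

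Genes of the same pathway outside the 36 are given for comparison, from lists drawn up with earlier results of these data known. None of them passed an adjusted p of 0.05 in any of the 8 comparisons (edgeR). Among 20 other targets of ATF4, 19 were tested and had a median correlation of 0.77 with the average of the members over the 8 libraries, against 0.01 over all genes tested. VEGFA (0.98), HERPUD1 (0.96), an endoplasmic reticulum degradation factor, and GPT2 (0.95), the mitochondrial alanine transaminase, were highest. HERPUD1 was at 743 and 778 CPM in WT vehicle, 527 and 761 in WT SI-2, then 614 and 375 in BR vehicle and 519 and 351 in BR SI-2. Of the 18 tested between lines over both treatments 15 had a lower and 3 a higher mean in BR cells (median -0.28), and the lowest was CCPG1, a receptor for degradation of the endoplasmic reticulum, at -0.87. GDF15 and FGF21, secreted products of this response in other tissues, were near 0, at no more than 0.208 and 1.06 CPM in any library.
The 16 genes of the eIF2 kinases, eIF2, eIF2B and their regulators had a median correlation of -0.20 with the members, and in BR against WT cells 9 had a higher and 7 a lower mean, the median being 0.02. The haem-regulated kinase EIF2AK1 was highest, at 0.32, and the kinase inhibitor DNAJC3 lowest, at -0.49. GCN2 (EIF2AK4) ran from 51.0 to 71.3 CPM and PERK (EIF2AK3) from 281 to 439. Of 17 further genes of the folate and methionine cycle 10 had a higher and 7 a lower mean in BR cells (median 0.05), and their median correlation was -0.11. MTHFD1L, a mitochondrial partner of MTHFD2, had the highest correlation of these, 0.80. Among 12 tested amino acid transporters outside the 36, 6 had a higher and 6 a lower mean in BR cells, and the median correlation was -0.06. Of these, SLC38A1, SLC38A5 and SLC43A1 had correlations over 0.9, and SLC43A1, a carrier of large neutral amino acids, had the lowest log2 fold change of that list in BR cells, at -0.89.
Over all 9328 genes outside the list with a mean of at least 10 CPM, the median correlation with the average of the members was -0.03, and 398 genes (4.27%) were above 0.9. The 10 highest were CALCOCO2, TUBB2B, UBQLN1, APEX1, SETD7, SLC38A1, ELOVL5, SEC63, SET and EIF4B, with correlations from 0.995 to 0.984. TUBB2B, a beta tubulin, was at 131 and 223 CPM in WT vehicle, 90.9 and 214 in WT SI-2, then 117 and 55.9 in BR vehicle and 96.3 and 46.6 in BR SI-2. CALCOCO2, a receptor of selective autophagy, was at 98.5 and 145, 75.3 and 128, 96.9 and 58.3, and 73.3 and 58.1 CPM in the same order. Of the 31 members with a mean of at least 10 CPM, 20 had a correlation above 0.9, with a median of 0.93. These correlations rest on 8 libraries that share their scaling and are given with no test.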

How the data were processed

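The deposited gene tables hold the authors' estimated counts and FPKM for 18564 genes in 8 libraries. Per the study's methods the reads came from a BGISEQ-500 after removal of low-quality reads, and the submitters' processing notes name hg19, BWA, Bowtie2 and RSEM. Which of these tools gave which deposited value, and strand use, are not given in the sources used here. Estimated counts were rounded, filtered with filterByExpr (minimum count 10), scaled by TMM (factors 0.971 to 1.058) and tested with the quasi-likelihood fit of edgeR 4.0.16 in R 4.3.3 at an adjusted p of 0.05 (Benjamini-Hochberg). The FPKM values deposited by the authors were used for levels between genes and, through limma 3.58.1, as an alternative. Other alternatives were library-size and upper-quartile scaling, DESeq2 1.42.0, no filter and a CPM filter, a replicate block (over all libraries, or within each line) or the other factor as a term, CBS and CBSL summed, and leaving out each library. Library totals had a median of 18242049 estimated counts, and the biological coefficient of variation was 0.179. The scripts were tested on simulated data.
The 36 members, the other gene lists and the marker lists were chosen with earlier results of these data known. Values of every library are given for ATF4, DDIT3 and ASNS, for the tested members of each role with the largest SD of log2 CPM (3 a role, 4 in roles of 8), and for members whose lines do not overlap in CPM. The groups came from the labels. Where the labels give SI-2 as a treatment protocol for all samples, the titles separate vehicle from SI-2. The authors' tables of comparisons (log2 fold changes, p and q values), transcript tables and 8 columns of averages were not used. Gene coordinates on the authors' build are not given here. Promoter sequences are those of RefSeq, GRCh38.p14. Figures were drawn with matplotlib 3.10.9.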

Additional observations from a re-analysis of the deposited data

Results flagged for a closer look

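In groups of 4 libraries, 68 combinations of a member and a line were examined with Dixon's ratio, and 6 had a library far from the other 3, where chance gives about 1 in 20, or 3.4. In BR cells BR vehicle 1 stood above the other BR libraries for SLC7A1 (361 CPM), SLC1A5 (896 CPM), CBS (43.8 CPM) and PCK2 (251 CPM). In WT cells WT SI-2 1 stood below the other WT libraries for SLC1A4 (402 CPM) and EIF4EBP1 (142 CPM). The members share their libraries, so these values are not independent.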

How the results depend on the processing

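Each condition has 2 libraries, which limits the precision of every comparison. Counts of genes called below are over all genes, at an adjusted p of 0.05. Between BR and WT cells with vehicle, edgeR called 0 genes, against 1 with upper-quartile scaling, 28 with DESeq2, 3 without a filter on counts, 1 with a CPM filter, 1 with limma on log2(FPKM + 1) and 4 on log2(FPKM + 0.1). With SI-2 it was 1 gene, against 31 with DESeq2, 0 and 0 with limma, and 0 to 67 without 1 library (67 without BR SI-2 1). For SI-2 in BR cells it was 0, against 1 with DESeq2 and 0 to 67 without 1 library (67 without BR SI-2 1), and for SI-2 in WT cells and the interaction 0, against 1 each with DESeq2. Over both treatments the lines differed at 49 genes, against 399 with DESeq2 and 21 to 125 without 1 library. The replicate numbers differed at 125 genes, against 196 with upper-quartile scaling, 746 with DESeq2, 62 and 56 with limma, 0 with the other factor as a term and 0 to 93 without 1 library. Among the members, DESeq2 called 1 with vehicle, 1 with SI-2 and 3 over both treatments, and leaving out 1 library gave 0 to 2 over both treatments.
What the replicate numbers mark is not stated in the sources used here. Differences between numbers 2 and 1 correlated across genes at 0.44 between vehicle and SI-2 in WT cells and 0.37 in BR cells, and at -0.12 to 0.20 between the lines, so libraries of the same number went together within a line and not in every pair across lines. With a replicate block within each line, added after seeing the data, SI-2 in BR cells gave 1 gene and SI-2 in WT cells, the interaction and SI-2 in both lines gave 0. With a replicate block the lines differed at 155 genes over both treatments and 1 with vehicle. Without 1 library the median of the members ran from -0.86 to -0.23 between lines with vehicle, -0.86 to -0.17 with SI-2, -0.71 to -0.42 over both treatments, -0.54 to 0.15 for SI-2 in BR, -0.55 to 0.08 in WT, -0.33 to 0.38 for the interaction, -0.44 to -0.05 for SI-2 in both lines and -0.05 to 0.24 for the replicate number. DDIT3 under SI-2 in WT cells turned to 0.016 with library-size scaling and 0.038 and 0.039 with limma, and ATF4 between replicate numbers to -0.0042 with the other factor as a term. Without 1 library ATF4 ran from -0.72 to 0.047 for SI-2 in BR, -0.71 to 0.073 in WT and -0.12 to 0.23 for the replicate number. DDIT3 ran from -0.24 to 0.84 for SI-2 in BR and -0.16 to 0.16 in WT. ASNS ran from -0.81 to 0.24 for SI-2 in BR, -0.49 to -0.091 in WT and -0.43 to 0.042 for the replicate number. The causes were not tested.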

Other observations

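The other genes of the folate and methionine cycle, such as SHMT1, TYMS and GLDC, had small differences with SI-2 that lay mostly on 1 side. In BR cells 17 of 17 had a lower mean with SI-2 than with vehicle (median log2 fold change -0.14, from -0.50 for GLDC, the glycine decarboxylase), and in WT cells 13 of 17 did (median -0.06). None passed an adjusted p of 0.05 in edgeR, and over all genes 50.3% and 49.9% were lower. SLC1A1, a glutamate transporter, had its highest value in BR SI-2 2, the library with fibroblast markers, at 2.49 CPM, and SLC7A8, a neutral amino acid exchanger, was also highest there, at 0.883 CPM.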
